A study of Mus musculus with 4 samples.

Results

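The 33 genes described here make, move and sense cholesterol, and were followed in the dorsal hippocampus of female mice. They comprise 17 enzymes of cholesterol synthesis, 5 genes of SREBP control, 5 genes of the LXR and efflux arm, 2 sterol hydroxylases and 4 genes of cellular sterol transport and uptake. They were chosen by name and by role, and were found on the array through the RefSeq transcript accession of each probe. Every one of the 33 had at least 1 probe, 50 probes in all, among 22911 genes that could be named on the array.

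RNA of 2 groups was hybridised, with 2 arrays per group: a control group (replicates 2 and 3) and a group labelled 20-fold iodine (replicates 2 and 3), all from hippocampus collected once behavioural testing was over. The strain, the age, and the route and length of the iodine intake are not given in the sources used here, nor is it stated that the samples came from separate animals. A p-value here thus speaks only to how far these samples scatter, part of which may be technical. A single slide (1) held the 4 arrays, with controls at positions 1 and 2 and iodine samples at positions 3 and 4, so slide position and group cannot be told apart. Values are normalized log2 signals, that is the log2 of the background-subtracted spot brightness after each array's 75th percentile was set equal.

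Cholesterol in the adult brain is made locally, because lipoproteins of the blood do not cross the blood-brain barrier. Acetyl units are condensed to mevalonate, built up through isoprenoids to squalene, closed to the ring sterol lanosterol and trimmed to cholesterol. When membrane sterol falls, the escort protein SCAP carries SREBP factors to the Golgi, where they are released to switch the enzyme genes on, and INSIG proteins hold SCAP back when sterol is plentiful. Oxysterols activate the LXR receptors, which raise export of cholesterol onto apolipoprotein E, and neurons dispose of surplus cholesterol by hydroxylating it with CYP46A1.

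SREBP factors bind promoters together with NF-Y, a factor that recognises the sequence CCAAT, so the promoters of the members were searched for it on both strands. The RefSeq promoter table (GRCm38.p6, from 250 bases before to 50 bases after each listed start) held 27 of the 33 members. CCAAT was found for 14 of the 14 synthesis enzymes in that table (100%), for 4 of 5 SREBP control genes, for both sterol hydroxylases, for 1 of 2 transport genes (Npc2) and for 0 of 4 LXR and efflux genes. Of all 27025 genes listed there, 41.1% held it in at least 1 promoter, and over all 32851 promoters 37.4% did. Counted by promoter, 14 of 17 of the synthesis enzymes (82.4%) held it, since Dhcr7 and Pmvk have further listed starts without it. A sterol regulatory element, spelled as ATCAC, any base, then CCAC, matched 0 of the 27 members and 0.27% of all genes. An LXR element, spelled as AGGTCA repeated after a gap of 4 bases, matched 0 of the 27 and 0.0148% of all genes. With no match of either, none overlapped a CCAAT word. A match describes letters in this window and is not a site shown to be bound. Only these exact spellings were searched, and an element that departs from them would be missed. The 0 counts thus do not show that the members lack such elements.

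The bases before the start are given for the 4 synthesis enzymes in the table with the lowest group differences (Msmo1, Idi1, Hmgcs1 and Lss), for the hydroxylase gene Cyp46a1, and for Abca1, an efflux gene without the word. They run 5′ to 3′ on the strand of the gene, with CCAAT, or ATTGG where the word lies on the opposite strand, in capitals. Hmgcs1 lies at chr13:119690101-119690350 (plus strand), Idi1 at chr13:8885356-8885605 (plus), Msmo1 at chr8:64733579-64733828 (minus), Lss at chr10:76531355-76531604 (plus), Cyp46a1 at chr12:108334066-108334315 (plus) and Abca1 at chr4:53159896-53160145 (minus).
Hmgcs1: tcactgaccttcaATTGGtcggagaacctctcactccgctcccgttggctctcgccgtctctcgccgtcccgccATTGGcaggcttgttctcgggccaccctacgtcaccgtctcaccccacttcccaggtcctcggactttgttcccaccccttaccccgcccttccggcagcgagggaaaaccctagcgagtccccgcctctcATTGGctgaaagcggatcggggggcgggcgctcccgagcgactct
Idi1: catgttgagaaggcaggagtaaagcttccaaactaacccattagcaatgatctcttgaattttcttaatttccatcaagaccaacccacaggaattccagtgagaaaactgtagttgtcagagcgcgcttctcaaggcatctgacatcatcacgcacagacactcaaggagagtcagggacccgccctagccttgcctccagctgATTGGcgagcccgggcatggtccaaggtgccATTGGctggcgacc
Msmo1: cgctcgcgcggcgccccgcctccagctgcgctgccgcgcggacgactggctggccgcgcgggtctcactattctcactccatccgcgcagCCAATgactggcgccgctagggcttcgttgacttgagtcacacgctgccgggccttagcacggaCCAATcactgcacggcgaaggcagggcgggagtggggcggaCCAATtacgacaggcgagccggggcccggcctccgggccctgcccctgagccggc
Lss: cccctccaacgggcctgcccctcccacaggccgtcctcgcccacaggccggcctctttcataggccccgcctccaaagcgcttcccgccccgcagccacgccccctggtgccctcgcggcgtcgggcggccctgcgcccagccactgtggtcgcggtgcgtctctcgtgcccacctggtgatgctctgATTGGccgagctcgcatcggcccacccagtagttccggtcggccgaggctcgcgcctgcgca
Cyp46a1: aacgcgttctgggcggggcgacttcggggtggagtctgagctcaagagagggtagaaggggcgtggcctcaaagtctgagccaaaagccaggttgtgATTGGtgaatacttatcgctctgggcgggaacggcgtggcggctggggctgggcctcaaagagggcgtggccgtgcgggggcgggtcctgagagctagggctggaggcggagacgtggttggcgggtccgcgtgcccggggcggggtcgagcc
Abca1: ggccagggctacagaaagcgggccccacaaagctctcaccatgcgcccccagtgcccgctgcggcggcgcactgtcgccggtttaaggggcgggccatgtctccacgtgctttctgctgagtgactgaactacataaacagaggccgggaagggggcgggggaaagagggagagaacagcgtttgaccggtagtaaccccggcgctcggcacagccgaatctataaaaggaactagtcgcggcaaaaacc
Within the stretch shown, the copy nearest the start begins 14 bases before it in Idi1, 45 before in Hmgcs1, 55 before in Msmo1, 62 before in Lss and 153 before in Cyp46a1. Hmgcs1 has a further copy that begins 10 bases after the start, in the searched window but outside the stretch shown. Idi1 has a second copy 45 bases before the start, and Hmgcs1 and Msmo1 carry 3 copies each in the stretch shown.

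No member passed the threshold between 20-fold iodine and control. The smallest adjusted p of a member by limma was 0.668 and the largest 0.990 (Benjamini-Hochberg over 16793 genes), and 0 of all 16793 genes passed (percent called 0), against 1239 with an unadjusted p under 0.05. Synthesis enzymes mostly had lower values on the iodine arrays, by a median log2 difference of -0.11, the sterol hydroxylase gene Cyp46a1 had a higher one (0.31), and SREBP control and LXR genes had medians near 0. Of the 33 members 22 were lower and 11 higher, with a median of -0.04, beside 54.3% lower, 45.7% higher and a median of -0.01 over all genes tested. All 33 passed the filter on dim probes, but Cyp27a1 did so only through the iodine arrays, and a gene that passes in that way had to differ. Groups of 2 arrays cannot reach an exact permutation p below 0.333.

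**Figure D1:**
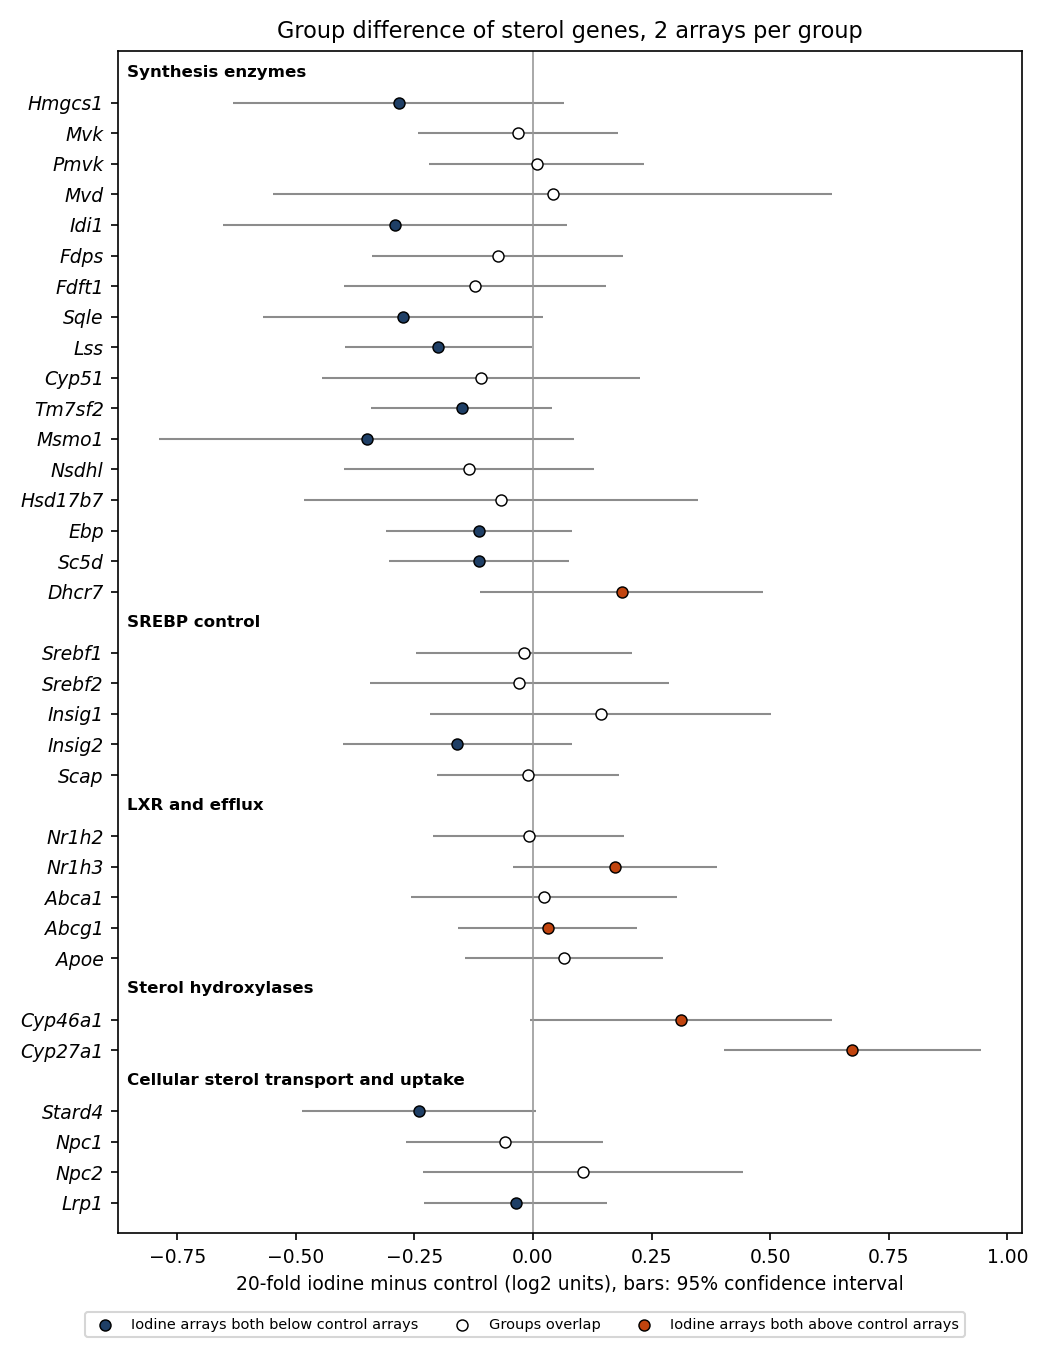
Log2 difference of each gene, 20-fold iodine minus control (x axis, log2 units), with the 95% confidence interval of the limma fit as bars, 2 arrays per group, genes grouped by role (y axis). Filled points mark genes whose iodine arrays lie both below (blue) or both above (red) the control arrays, and only the bars of Lss and of Cyp27a1, which was dim in controls, do not cross 0.

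Among the 17 synthesis enzymes 14 had lower and 3 higher values in iodine, and the iodine arrays lay entirely below the control arrays in 8 of the 17 and entirely above in 1. Over all genes tested 21.9% lay entirely below and 17.9% entirely above. By unadjusted p under 0.05 (limma), 1 of the 17 was lower, Lss, against 3.49% of all genes, and 0 were higher, against 3.89%. RNA came from whole tissue, so fewer cells of a type and less RNA per cell cannot be told apart.

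Early enzymes, which build the isoprenoid chain up to squalene, were led by Hmgcs1 and Idi1. Hmgcs1, which makes HMG-CoA, the precursor of mevalonate, had log2 signals of 11.72 and 12.03 on the control arrays against 11.60 and 11.59 on the iodine arrays, a difference of -0.28 ± 0.13 (SE, n = 2 per group, limma adjusted p = 0.710). Both iodine arrays were below both controls, and control replicate 3 alone stood well above the other 3 arrays. Idi1, which interconverts the basic isoprene units, had 8.97 and 9.29 on the control arrays against 8.88 and 8.80 on the iodine arrays, a difference of -0.29 ± 0.13 (adjusted p = 0.710). The same array was again the highest. The other 5 early enzymes overlapped between the groups. Fdft1, which joins farnesyl units into squalene, differed by -0.12 and its 2 probes gave the same value to 2 decimals. Fdps (-0.07), the farnesyl diphosphate synthase, and the mevalonate kinases Mvk (-0.03) and Pmvk (0.0074) were close to 0. Mvd, the decarboxylase that follows them, had log2 signals of 6.98 and 7.56 on the control arrays against 7.35 and 7.27 on the iodine arrays, a difference of 0.04 with a 95% confidence interval of -0.55 to 0.63. Its controls lay on either side of the iodine arrays.

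Late enzymes, which oxidise squalene, close the rings and trim lanosterol to cholesterol, were lower in 9 of 10, with a median log2 difference of -0.12, beside 5 of 7 and -0.07 for the early enzymes. That order was not kept when a control array was left out. Without control replicate 3 the late median was -0.10 and the early one 0.0174, with 3 of 7 lower, and without control replicate 2 they were -0.21 and -0.23. Msmo1, the methyl sterol oxidase, had log2 signals of 11.25 and 11.66 on the control arrays against 11.11 and 11.10 on the iodine arrays, a difference of -0.35 ± 0.16 (SE, n = 2 per group, limma adjusted p = 0.710). This is the lowest difference of the 33, and its other probe gave -0.29. Sqle, the squalene epoxidase that commits the chain to sterol, had 10.40 and 10.64 on the control arrays against 10.24 and 10.25 on the iodine arrays, a difference of -0.27 ± 0.11 (adjusted p = 0.694). In both genes the iodine arrays nearly coincided and the controls were apart.

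Lss, the cyclase that forms lanosterol, differed from these in having close controls. Its log2 signals were 7.28 and 7.33 on the control arrays against 7.12 and 7.09 on the iodine arrays, a difference of -0.20 ± 0.07 (SE, n = 2 per group, 95% confidence interval -0.40 to -0.0023, limma adjusted p = 0.678). All 3 of its probes had lower means in iodine, at -0.20, -0.18 and -0.09. Tm7sf2, a sterol reductase, had a similar shape, with 9.65 and 9.67 in controls, 9.50 and 9.52 in iodine and a difference of -0.15, and -0.16 by its other probe. Sc5d, the desaturase, stood at 8.70 and 8.69 on the control arrays against 8.59 and 8.56 on the iodine arrays (-0.11), and Ebp, the sterol isomerase, at 9.73 and 9.78 against 9.64 and 9.64 (-0.11). The groups did not overlap in these genes, although another probe of Ebp gave 0.08.

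Cyp51, which removes a methyl group of lanosterol, and Nsdhl, which helps to remove others, overlapped between the groups at -0.11 and -0.14, as did Hsd17b7, a reductase of the same complex, at -0.07. The fainter probes of Cyp51 and Hsd17b7 gave 0.02 and 0.07. Dhcr7, which carries out a final reduction to cholesterol, went the other way, with 7.38 and 7.50 on the control arrays against 7.52 and 7.73 on the iodine arrays, a log2 difference of 0.19 with a 95% confidence interval of -0.11 to 0.48. It was the only synthesis enzyme whose iodine arrays both lay above the controls.

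**Figure D2:**
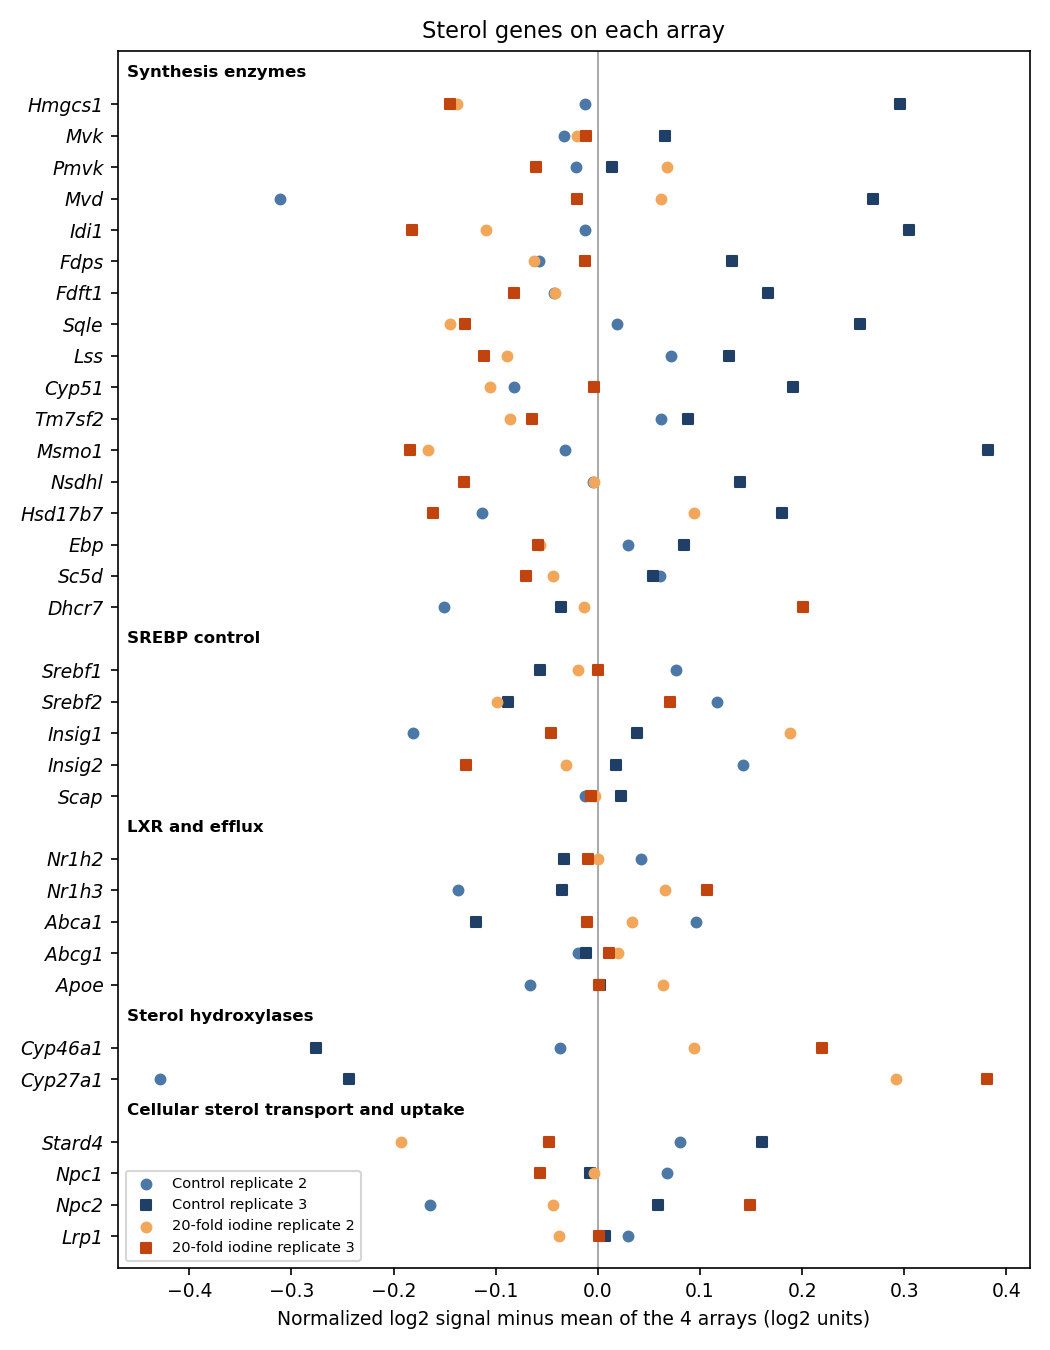
Normalized log2 signal of each gene on each of the 4 arrays, as the deviation from that gene's mean over the 4 arrays (x axis, log2 units), genes grouped by role (y axis). Control replicate 3 (dark blue squares) is the highest array in 14 of the 17 synthesis enzymes, against at most 3 of 5 genes for any array in the SREBP control and efflux roles.

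The synthesis enzymes varied together between the 2 control arrays. Control replicate 3 was above control replicate 2 in 16 of 17 of them, by a median of 0.19 log2 units, where 50.5% of all genes and a median of 0.001 were found. It was the highest of the 4 arrays in 14 of 17 (82.4%), against 24.5% of all genes. The gap between the controls was larger than the difference between the groups in 11 of the 17 (64.7%), against 53.5% of all genes. Among the 11 were Hmgcs1 (0.31), Idi1 (0.32), Msmo1 (0.41) and Mvd (0.58), while the iodine arrays of these 4 enzymes differed by 0.01 to 0.08 in size. The iodine gap, replicate 3 minus 2, was also narrow in Mvk (0.009), Fdps (0.05) and Fdft1 (-0.04). It was wider in Hsd17b7 (-0.255), Pmvk (-0.129), Nsdhl (-0.128) and Cyp51 (0.102), the rest of the 11. Without control replicate 3, the median of the synthesis enzymes was -0.06 with 10 of 17 lower, and without control replicate 2 it was -0.21 with 16 of 17 lower. The size of the group difference thus depended on which of the 2 control arrays was used.

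Marker genes of other cells were read on the same arrays, since astrocytes and oligodendrocytes hold much of the brain's sterol synthesis. The summed signal of 12 astrocyte markers was 106 and 102% of its 4-array mean in controls and 98.9 and 92.8% in iodine, with 5 of the 12 genes higher in iodine. Its brightest genes, Aldoc and Glul, differed by -0.18 and -0.09 (log2), while Sox9 differed by 0.37 and Gfap by 0.29. The summed signal of 12 oligodendrocyte markers was 106 and 98.8% against 101 and 94.4%. For 12 neuron markers it was 99.8 and 104% against 105 and 91.9%, and for 10 microglia markers 91.7 and 108% against 106 and 94.3%. Meninges and fibroblast markers (9 genes) stood at 96.4 and 122% against 67 and 115%, and choroid plexus markers (8 genes) at 103 and 91.6% against 33.8 and 171%. Thalamus and habenula markers (8 genes) stood at 94.7 and 85.5% against 80.5 and 139%, and 6 of the 7 tested were higher in iodine, with a median log2 difference of 0.32 that was -0.08 without 20-fold iodine replicate 3. Oligodendrocyte precursor markers (8 genes) lay between 96 and 105% on the 4 arrays, endothelium markers (8 genes) between 90.8 and 112%, and markers of hippocampal neurons (10 genes) between 90.4 and 109%. On control replicate 3, where the synthesis enzymes had a median deviation of 0.14, the microglia and meninges lists had 0.13 and 0.31, and the astrocyte, oligodendrocyte and neuron lists -0.04, -0.03 and 0.0053. The choroid plexus list had 0.16 there and 0.30 on control replicate 2, and the thalamus list -0.20. The part of these cells, or of tissue next to the hippocampus, in the result was not tested. Every marker in these lists was well above background on all arrays but 1 of the oligodendrocyte list and 1 of the thalamus list, which was above it on none.

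SREBP control genes had a median near 0, though Insig1 and Insig2 differed by 0.14 and -0.16. By their means 4 of 5 were lower, beside 54.3% of all genes tested, and 4 of 5 overlapped between the groups. Srebf2, which encodes the SREBP that drives sterol synthesis, had log2 signals of 6.55 and 6.35 on the control arrays against 6.34 and 6.51 on the iodine arrays, a difference of -0.03 (95% confidence interval -0.34 to 0.29). The groups overlapped and control replicate 3 was here among the low arrays. Srebf1, whose products favour fatty acid genes, differed by -0.02 (-0.25 to 0.21) and Scap, the escort protein, by -0.0098 (-0.20 to 0.18). Of the retention factors, Insig1, itself an SREBP target, differed by 0.14 (-0.22 to 0.50), with 5.85 and 6.06 on the control arrays against 6.21 and 5.98 on the iodine arrays. Insig2, with 9.63 and 9.51 on the control arrays against 9.46 and 9.36 on the iodine arrays, differed by -0.16 (-0.40 to 0.08), and its other probes gave -0.16 and -0.02. Insig2 was the only gene of the 5 whose groups did not overlap. Its iodine arrays lay entirely below the control arrays, as did those of 21.9% of all genes tested. The median of the 5 was -0.02, changing to 0.03 without control replicate 2 and to -0.09 without control replicate 3.

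The LXR and efflux genes had a median log2 difference of 0.03, which was -0.0019 with normexp background correction and 0.195 when the probes of each gene were averaged. Of the 5 genes 1 was lower by the brightest probes and 0 by that average, beside 54.3 and 49.4% of all genes tested. That average takes in a fainter probe of Nr1h2 and a dim one of Abca1. Nr1h3, the inducible LXR alpha, had 6.53 and 6.63 on the control arrays against 6.73 and 6.77 on the iodine arrays, a difference of 0.17 ± 0.08 (SE, n = 2 per group, limma adjusted p = 0.710), and its fainter probe gave 0.27. Both probes placed the iodine arrays above the controls. Nr1h2, the LXR beta of most brain cells, differed by -0.0091 by its brighter probe, with 10.11 and 10.03 on the control arrays against 10.07 and 10.06 on the iodine arrays. A fainter probe, on another transcript accession of Nr1h2, gave 5.09 and 5.28 on the control arrays against 5.57 and 5.59 on the iodine arrays, a difference of 0.40, so the 2 probes disagreed.

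The efflux transporters and their acceptor had differences near 0 by their bright probes. Abca1, which hands cholesterol to lipid-poor apolipoproteins, had 7.16 and 6.94 on the control arrays against 7.10 and 7.05 on the iodine arrays, a log2 difference of 0.02 (95% confidence interval -0.26 to 0.30). A dim Abca1 probe was not well above background on either control array and at least 1.44-fold brighter in iodine, which is a bound. It passed the filter only through the iodine arrays and so had to be brighter there. The bound sets the iodine mean against the control arrays' lowest signal well above background. Abcg1, which exports to larger particles, had 9.46 and 9.47 on the control arrays against 9.50 and 9.49 on the iodine arrays, a difference of 0.03 that turned to -0.0019 with normexp. Apoe, the main lipoprotein of astrocytes, differed by 0.06 (-0.14 to 0.27) and by 0.17 by its other probe.

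**Figure D3:**
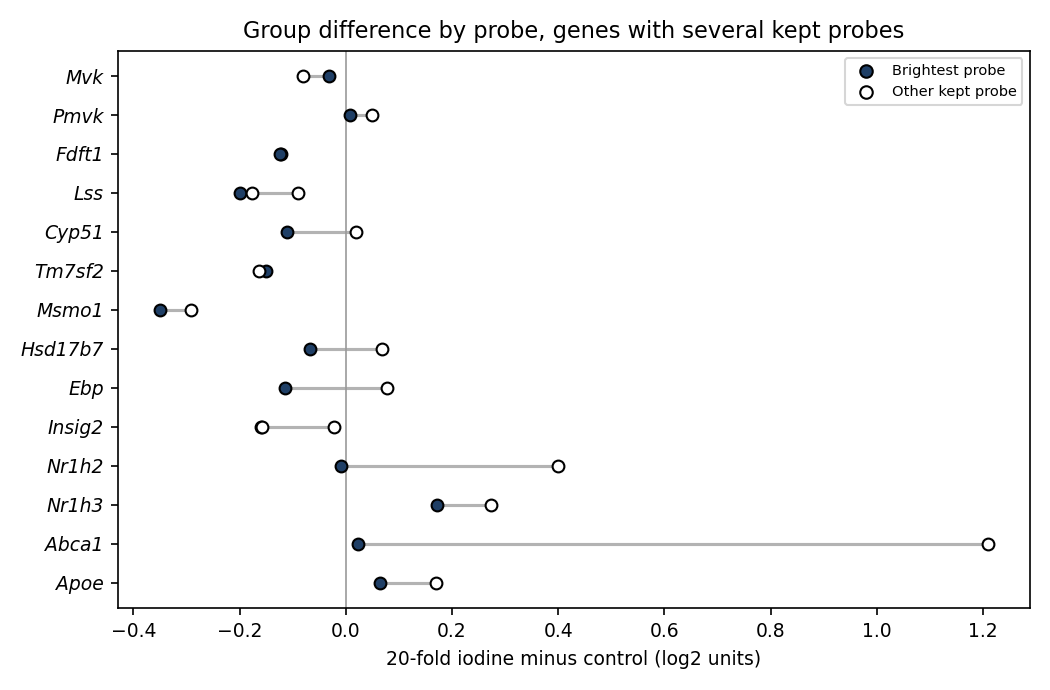
Log2 difference, 20-fold iodine minus control (x axis, log2 units), of every probe kept after the filter for the 14 genes with several such probes (y axis), with the brightest probe filled and the others open. The probes of Msmo1, Tm7sf2, Fdft1 and Lss lie on the same side of 0, while those of Nr1h2 and Abca1 are far apart.

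Of the 2 sterol hydroxylases only Cyp46a1 was measured above background in both groups. Cyp46a1, the neuronal enzyme that turns cholesterol into a hydroxylated form able to leave the brain, had log2 signals of 7.17 and 6.93 on the control arrays against 7.30 and 7.42 on the iodine arrays. The difference was 0.31 ± 0.12 (SE, n = 2 per group, 95% confidence interval -0.0053 to 0.63, limma adjusted p = 0.679), with both iodine arrays above both controls. Control replicate 3, the highest array for the synthesis enzymes, was the lowest for Cyp46a1. Leaving out single arrays gave 0.19 to 0.43, with 0.19 without control replicate 3.

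Cyp27a1, the mitochondrial sterol hydroxylase, was near the detection limit. Its log2 signals were 1.82 and 2.01 on the control arrays against 2.54 and 2.63 on the iodine arrays, well above background on 0 of 2 control arrays and 2 of 2 iodine arrays, so a higher value in iodine was built into its passing the filter. Against the lowest signal well above background on the control arrays it was at least 1.37-fold brighter in iodine (limma adjusted p = 0.668 for the fitted difference). That fitted difference was 0.67, and 0.12 with normexp, whose offset draws dim probes toward each other.

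Stard4 had the lowest difference of the 4 genes of cellular sterol transport and uptake, and most synthesis enzymes were also lower in iodine. Stard4 ferries sterol between membranes and is an SREBP target. Its log2 signals were 6.86 and 6.94 on the control arrays against 6.59 and 6.73 on the iodine arrays, a difference of -0.24 ± 0.09 (SE, n = 2 per group, limma adjusted p = 0.680), and the groups did not overlap. Without control replicate 3 its difference was -0.20, where the synthesis enzymes had a median of -0.06. A link between Stard4 and those enzymes was not tested. A further probe of Stard4 was not above background on any array and was not used. Npc1 and Npc2, which release cholesterol from lysosomes, differed by -0.06 (95% confidence interval -0.27 to 0.15) and 0.11 (-0.23 to 0.44). Lrp1, the receptor that takes up apolipoprotein E particles, differed by -0.04 (-0.23 to 0.16), with both iodine arrays just below the controls.

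**Figure D4:**
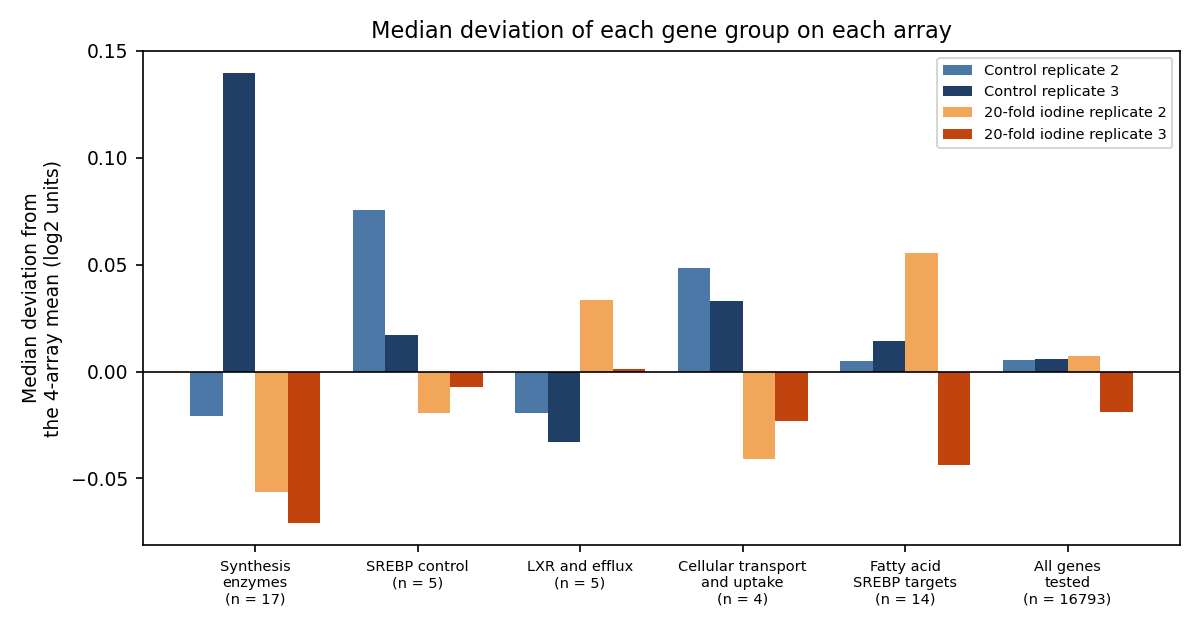
Median deviation from the 4-array mean (y axis, log2 units) of the genes of each role, of SREBP target genes of fatty acid synthesis and of all genes tested (x axis, number of genes in brackets), on each of the 4 arrays. Synthesis enzymes stand at 0.14 on control replicate 3 and between -0.07 and -0.02 on the others. Sterol hydroxylases are left out, since 1 of the 2 passed the filter only through the iodine arrays.

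A wider list of 72 genes of the same pathways, of which 70 were tested, had a median log2 difference of -0.02. Of the 70, 39 (55.7%) were lower and 31 higher, beside 54.3 and 45.7% of all genes tested. By limma 0 passed. An unadjusted p under 0.05 was found in 4 lower and 1 higher genes of the 70, against 3.49 and 3.89% of all genes. The same 54.3% stands beside the counts of lower genes in the lists below. Other genes at the edges of the synthesis pathway were lower in 7 of 8, with a median of -0.07 that was -0.012 without control replicate 3 (5 of 8 lower) and -0.11 without control replicate 2. Lbr, a nuclear envelope protein with the same sterol reductase activity as Tm7sf2, had 8.38 and 8.42 on the control arrays against 8.18 and 8.09 on the iodine arrays, a difference of -0.27 ± 0.08 (SE, n = 2 per group, limma adjusted p = 0.668). Ggps1, which diverts farnesyl units to protein prenylation, differed by -0.15.

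SREBP target genes of fatty acid synthesis had a median of -0.01, with 8 of 14 lower, and their arrays did not show the high position of control replicate 3 (0.01, beside 0.14 for the sterol enzymes). Scd2, the main brain desaturase, differed by -0.13 and Pnpla3 by 0.11. Further SREBP control genes had a median of -0.04, with 8 of 13 lower. In that list Pgrmc1, a membrane partner of cytochrome P450 enzymes, differed by -0.25 ± 0.08 (SE, n = 2 per group) and Nfyb, a subunit of the CCAAT-binding factor NF-Y, by -0.23 ± 0.08, each with a limma adjusted p of 0.668.

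Other LXR target and efflux genes were higher in 8 of 12, beside 45.7% of all genes tested. Their median log2 difference of 0.07 was 0.0305 without 20-fold iodine replicate 2 and 0.0463 without control replicate 2. Pltp, a phospholipid transfer protein, had the highest difference (0.22) with overlapping groups. Abca2 (0.22), a lipid transporter of oligodendrocytes, and Lpcat3 (0.15), a phospholipid-remodelling LXR target, had the smallest unadjusted p among them. Turnover genes were split. Ch25h, which makes an oxysterol and is induced by interferon, had 4.49 and 4.94 on the control arrays against 3.07 and 3.89 on the iodine arrays, a difference of -1.24 ± 0.33 (SE, n = 2 per group, limma adjusted p = 0.668). Soat1, which esterifies cholesterol for storage, had 7.41 and 7.43 against 7.66 and 7.67, a difference of 0.24 ± 0.07 (limma adjusted p = 0.668). The median of the 7 turnover genes was -0.06. Other uptake and transport genes had a median of 0.0062 over 16, with 7 lower, and Osbp (0.17) and Gramd1b (0.15), both sterol carriers at membrane contacts, had the smallest unadjusted p among them.

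The arrays were alike in quality. Of 56605 probes, 37533 to 37921 per array exceeded background clearly, repeated spots of a probe varied by a median of 2.25 to 3.17% (coefficient of variation), and 0 spots were saturated.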

How the data were processed

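Cy3-labelled RNA of 4 samples was read on 1-colour Agilent arrays. Per the file headers, the authors produced the scanner output with Agilent Feature Extraction (version 12.1.1.1). Its processed signal, a deposited intensity, was used here. It was background-subtracted and detrended within the array, per the file headers, and not scaled between arrays. Spots of a probe were averaged without outlier spots (47 to 70 per array). Log2 values were set to a common 75th percentile, and probes well above background on at least 2 arrays were kept.

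Genes were named by transcript accession through a RefSeq table of GRCm38.p6, which named 58.3% of probes, and the brightest kept probe stood for a gene. The groups were compared with limma 3.58.1 in R 4.3.3 over 16793 genes, two-sided, with Benjamini-Hochberg adjustment and a threshold of 0.05, after the script was tested on simulated data. Figures were drawn with matplotlib 3.10.9. The array header names an older build, so coordinates are given only for RefSeq promoters.

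The members and lists were chosen with earlier results of these data known. Array values are printed for the 8 members with the smallest unadjusted p, for members whose probes differ in sign by over 0.3 (log2) or that were dim in a group, and for others chosen after their values were seen. The 2 genes with the smallest unadjusted p are named from each wider list. The files hold no mean spot signal, so normexp (offset 50) was run on the deposited median spot and background intensity. Alternatives were other background, scaling, filter, variance and probe rules, a replicate block, and each array left out.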

Additional observations from a re-analysis of the deposited data

How the results depend on the processing

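With 2 arrays per group, the 13 alternatives each gave 0 genes past the adjusted threshold, as reported. With the replicate number as a block, 0 genes passed as well (smallest adjusted p = 0.764), and 1059 genes against 1239 had an unadjusted p under 0.05. Same-numbered samples did not deviate together (r = -0.025 over genes, which are not independent replicates), so the numbers were not taken as pairs. The median of the LXR and efflux genes (0.03) was -0.0019 with normexp, 0.0058 with scaling to the median of detected probes, 0.195 when the probes of a gene were averaged and 0.17 with every probe on its own. That of the sterol hydroxylases (0.49) was 0.16 with normexp and 0.31 when probes had to be above background on all arrays, which leaves out Cyp27a1. That of the transport and uptake genes (-0.05) was -0.0945 with normexp, -0.0294 with quantile normalization and -0.0733 with the median of detected probes. The cause of these shifts was not tested, except where a gene or probe was added or left out. Leaving out each array in turn moved the medians over -0.0822 to -0.0371 (all members), -0.2142 to -0.0632 (synthesis enzymes), -0.0851 to 0.0325 (SREBP control) and -0.0726 to -0.0242 (transport and uptake). Single genes changed sign with normexp (Mvd -0.0044, Scap 0.0139, Abca1 -0.0149, Abcg1 -0.0019), with quantile normalization (Scap 0.0086, Nr1h2 0.0027), with the median of detected probes (Pmvk -0.0175, Abca1 -0.0014) and with the mean of probes (Hsd17b7 0.0003, Nr1h2 0.195). With single arrays left out, these ranges crossed 0: Mvk -0.0822 to 0.0174, Pmvk -0.0571 to 0.0719, Mvd -0.25 to 0.33, Fdps -0.17 to 0.0196, Cyp51 -0.25 to 0.0266, Hsd17b7 -0.21 to 0.0793, Srebf1 -0.0851 to 0.0476, Srebf2 -0.13 to 0.074, Scap -0.0276 to 0.008, Nr1h2 -0.0466 to 0.0284, Abca1 -0.0837 to 0.13 and Npc2 -0.0064 to 0.22. Among the wider lists the medians moved over -0.1126 to -0.012 (synthesis), -0.1127 to -0.0379 (SREBP control), -0.0377 to 0.0691 (fatty acid synthesis), 0.0305 to 0.069 (LXR and efflux), -0.1059 to -0.0553 (turnover) and -0.033 to 0.0187 (uptake and transport). A group reduced to 1 array is taken to scatter as the other group does. The number of arrays limits the precision, and Cyp27a1 is limited by its signal over background.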
